A study of Mus musculus with 9 samples.

Results

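The comparison described here set MSC, a line of stromal cells derived from mouse bone marrow, kept with peritoneal fluid (PF) of TNBS-treated mice against the same cells kept with phosphate-buffered saline (PBS), by RNA sequencing. Its members were all genes with an FPKM (assigned fragments scaled to the length of the gene and the depth of the library) of at least 1 in 3 or more of the study's 9 libraries. This left 10537 of the 21959 genes in the deposited table. TNBS is a hapten that provokes colitis in rodents, and the fluid donors of the TNBS PF group had received it for 3 days. MSC of all groups stood for 24 h in the same basal medium with 10% fetal bovine serum, so the PBS cells were not without serum. The groups were TNBS PF (MSC with fluid of TNBS mice), PBS (MSC with saline) and control PF (MSC with fluid of control mice), each with 3 libraries. The line is marked SV40 in the labels. The sources used here do not give the strain and age of the mice, the number of fluid donors or the volume of fluid. Nothing in the labels says that the 3 libraries of a group came from separate cultures, so the spread behind each p-value may be technical.

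Mesenchymal stromal cells are adherent cells that lay down matrix and secrete cytokines, chemokines and growth factors. Peritoneal fluid bathes the abdominal organs and carries plasma proteins, lipids, signalling proteins and cells. A cell that meets such a fluid can show it in a few well-known transcript programmes. In the integrated stress response the transcription factor ATF4 raises genes for amino acid synthesis, amino acid import and the charging of transfer RNA. Contact, stretch and serum lipids act on YAP and serum response factor, whose targets include Ccn1, Ccn2, Ankrd1 and actin genes. Interferons raise antiviral and antigen presentation genes through STAT proteins and interferon regulatory factors, and the transcription factor SREBP raises the enzymes of cholesterol synthesis when sterols are short.

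The depth recovered from the values was 22.9 to 25.6 M assigned fragments in the TNBS PF libraries and 17.9 to 20.3 M in the PBS libraries, ranges that do not overlap. With all libraries thinned to the shallowest, the comparison gave 1669 calls in place of 1758. A single fragment in 1 kb of exon was an FPKM of 0.0391 to 0.056 over the 9 libraries. The 12 markers of bone marrow stromal cells were all detected, with a summed level of 1323 to 1343 FPKM in TNBS PF and 1382 to 1413 FPKM in PBS. Of 10 markers of all haematopoietic cells 9 were under a mean FPKM of 1, and Vav1 and Cd48 were at 0 in all TNBS PF and PBS libraries. Arhgdib, at a mean of 16.6 FPKM, carried that sum, which was 17.4 to 18.1 FPKM in TNBS PF and 16.2 to 17.5 FPKM in PBS. Of 15 macrophage and monocyte markers 13 were under 1, and C1qa, C1qb, C1qc, Ccr2 and Tyrobp were at 0 in all TNBS PF and PBS libraries. Cd14, which some stromal cells also express, carried that sum (16.6 to 18.4 FPKM in TNBS PF, 14.6 to 15.9 FPKM in PBS, exact two-sided permutation p = 0.1). Cd14 passed as higher in TNBS PF (log2 difference 0.19), but not without TNBS PF 1 or 2 or PBS 1 (adjusted p up to 0.121). The cells that gave its reads were not tested. The summed level of the neutrophil list was 0.155 to 0.387 FPKM in TNBS PF and 0.0757 to 0.558 FPKM in PBS. In every library the summed level stayed under 1.3 FPKM for the T and NK cell, mast cell and eosinophil, erythroid, endothelial and intestinal epithelial lists, and it was between 2.03 and 2.44 FPKM for the B and plasma cell list, most of it Ebf1.

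At an adjusted p under 0.05, 1758 of the 10537 tested genes (16.7%) differed between TNBS PF and PBS, 822 of them higher (7.8%) and 936 lower (8.88%) in TNBS PF. All adjusted p-values here are from limma's moderated test with Benjamini-Hochberg adjustment over all tested genes, and log2 differences are on the log2(FPKM + 1) scale, which understates the change of low genes. Most of the differences were small, with a median size of 0.21 among the called genes and 1149 of them under 0.25. Only 55 reached 0.5, 23 higher and 32 lower, and only 5 reached 1, namely Tfrc (higher) and Spon2, Aspn, Igfbp3 and the predicted gene Gm5617 (lower). In bulk RNA, fewer cells of a type and less RNA per cell cannot be told apart. The 3 values of each group stood apart, without overlap, in 1732 of the called genes and in 3717 of all tested genes (35.3%). The median difference over all tested genes was -0.01. With the values scaled to TPM the calls were 624 higher and 1153 lower, so that 35.1% of calls were higher against 46.8% as deposited. Median-ratio scaling gave 972 higher and 819 lower (54.3% higher) and voom on the recovered fragments 1142 and 1042 (52.3% higher), so which direction held more calls depended on the scaling. Leaving out TNBS PF 3 gave 1148 calls. A few genes stand in several of the lists below, and a call was checked by leaving out each library of either group in turn.

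**Figure D1:**
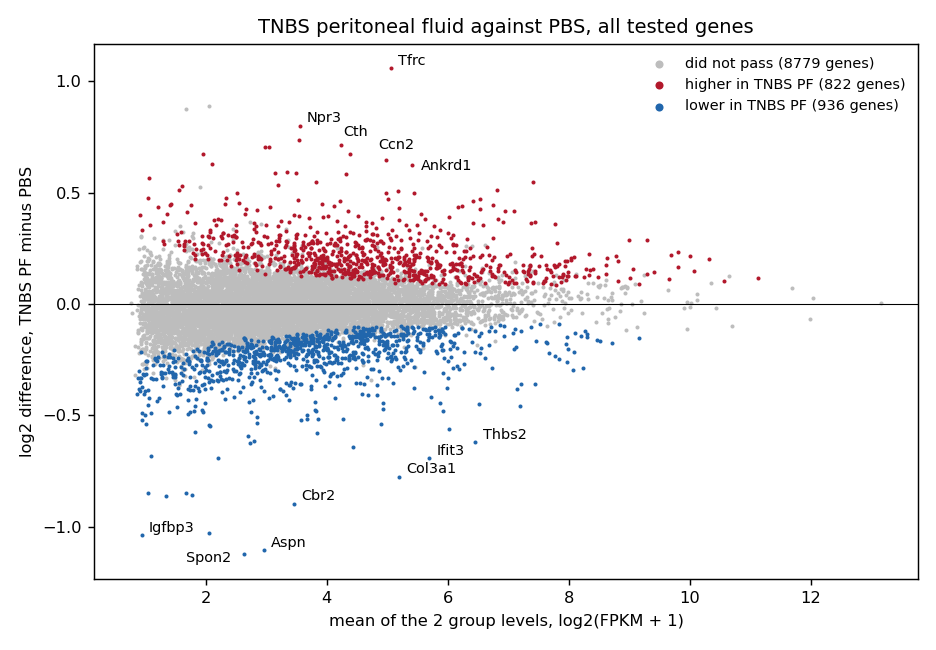
Each point is 1 of the 10537 tested genes, with the mean of the TNBS PF and PBS levels on the x axis (log2(FPKM + 1)) and the log2 difference, TNBS PF minus PBS, on the y axis. The 822 red points were higher and the 936 blue points lower at adjusted p under 0.05, and the gene Tfrc at the top stands apart at a difference of 1.06.

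The transferrin receptor gene Tfrc (ENSMUSG00000022797, chr16:32608920-32632794, plus strand of mm10), whose product takes up transferrin-bound iron, rose the most. Its level was 46, 48.6 and 46.5 FPKM in the TNBS PF libraries and 21.7, 22.2 and 22.3 FPKM in the PBS libraries. The groups lay far apart, and the rise was 2.13-fold (log2 difference 1.06, SE 0.0332, adjusted p = 1.12e-09). Control PF libraries held 27.4, 26.4 and 26.4 FPKM, nearer to PBS than to TNBS PF. Npr3, which encodes the clearance receptor for natriuretic peptides, had 13.9, 15.1 and 14.4 FPKM in TNBS PF and 8.77, 7.03 and 7.95 FPKM in PBS (log2 difference 0.80, adjusted p = 4.38e-06). Thbd, the gene of thrombomodulin, which turns thrombin to an anticoagulant role, went from 17.3, 14.8 and 14.7 FPKM in PBS to 25.7, 24.9 and 25.6 FPKM in TNBS PF (log2 difference 0.67, adjusted p = 4.38e-06). In both genes every TNBS PF library was above every PBS library. Tigit, best known as an inhibitory receptor of T and NK cells, had 14, 13.2 and 14.5 FPKM against 7.07, 7.50 and 9.42 FPKM (log2 difference 0.74, adjusted p = 5.68e-05). Of the T and NK cell markers, Cd3d, Cd3g, Cd8a, Nkg7, Gzma and Cd2 were at 0 in these libraries. Lck, Cd4 and Klrb1c were not. The summed level of that list was 0.632 to 0.883 FPKM in TNBS PF and 0.516 to 0.854 FPKM in PBS. The cells that gave the Tigit reads were not tested. The serpin gene Serpinb2, an inhibitor of urokinase, was 1.75-fold higher (9.07 ± 0.339 against 5.18 ± 0.395 FPKM, SD, n = 3 each). Sprr1a (log2 difference 0.70), Gap43 (0.67), the G protein regulator Rgs16 (0.59) and the uridine phosphorylase gene Upp1 (0.59) also rose. The largest rises and falls were picked only among called genes whose groups do not overlap. The lack of overlap in them is therefore no further evidence.

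Genes of secreted matrix proteins were among the largest falls. Spon2, a secreted spondin, had 3.00, 3.43 and 3.08 FPKM in TNBS PF and 7.45, 9.40 and 7.53 FPKM in PBS, with control PF between them at a mean of 4.66 FPKM. This was 2.56-fold lower in TNBS PF (log2 difference -1.12, SE 0.0771, adjusted p = 2.53e-06). Aspn, which encodes asporin, a small leucine-rich protein that binds TGF-beta, had 4.50, 3.87 and 4.54 FPKM against 10.2, 9.92 and 11 FPKM (log2 difference -1.10, adjusted p = 8.65e-07). Cbr2, a carbonyl reductase gene, fell from 15.9, 12.5 and 13.6 FPKM to 7.02, 6.95 and 7.10 FPKM (log2 difference -0.90, adjusted p = 4.38e-06). In Spon2, Aspn and Cbr2 all 3 PBS libraries were above all TNBS PF libraries, as the rule for picking the largest falls required. Itgbl1 (log2 difference -0.85), Nrep (-0.63) and the interferon-inducible gene Ifi207 (-0.62) fell in the same way. Igfbp3, Mme, Ccn5 and Postn were also among the 15 falls of greatest size, but all 3 of their TNBS PF values were under the FPKM minimum of 1. These genes entered the test through their higher groups, so a difference was built into their selection. For Igfbp3, which binds insulin-like growth factors, the values were 0.204, 0.374 and 0.432 FPKM against 2.13, 1.35 and 1.79 FPKM. Cyp1b1, a cytochrome P450 gene, passed at adjusted p = 0.0282 with 1.52, 1.59 and 1.19 FPKM against 2.14, 6.69 and 2.53 FPKM. The PBS 2 value stood apart there, and the call was lost without TNBS PF 1, 2 or 3, with no filter, without the variance trend and when only the 6 libraries were fitted.

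**Figure D2:**
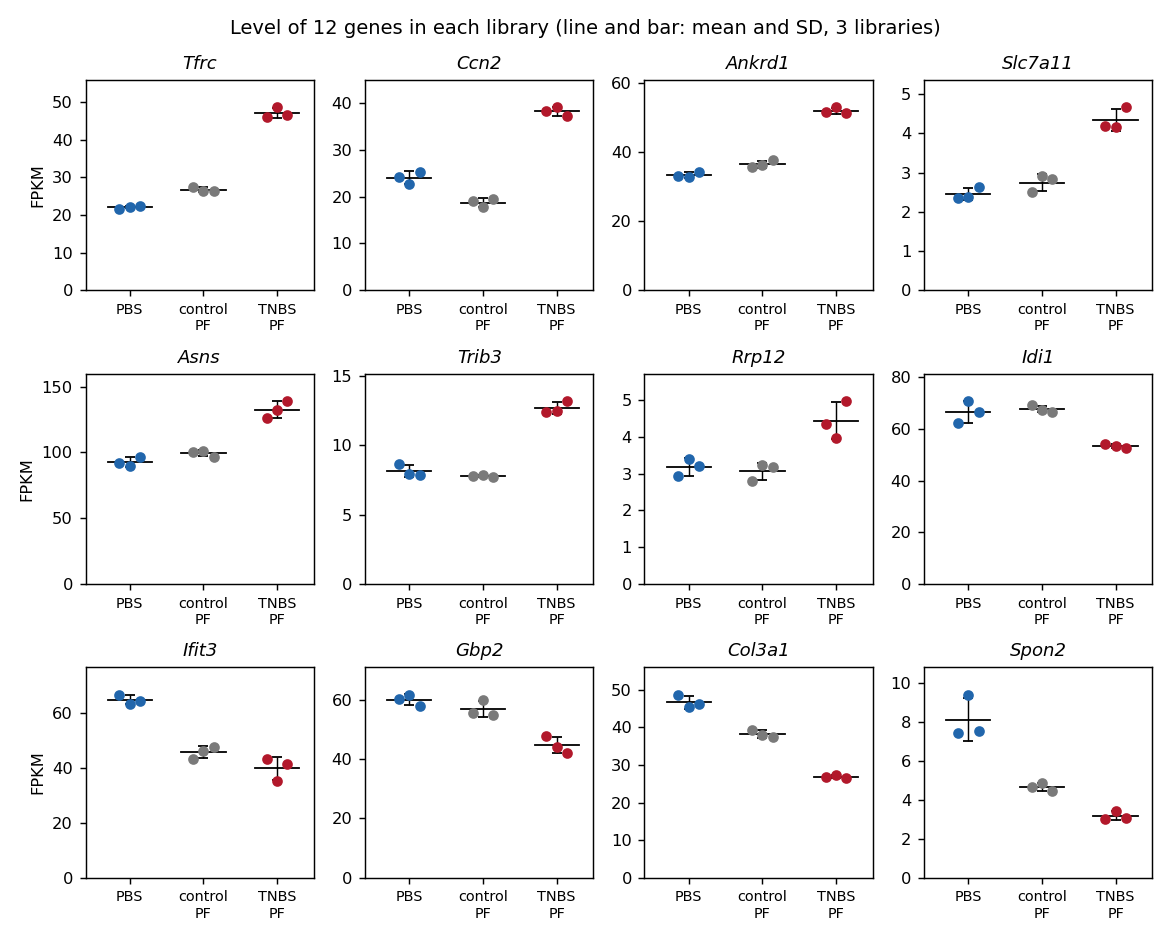
FPKM (y axis, from 0) of 12 genes in every library of the 3 groups (x axis). Points are libraries, lines are means and bars are SD over 3 libraries. In each panel the TNBS PF points lie wholly above or wholly below the PBS points.

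Among 17 tested effectors of the integrated stress response, 11 rose and 0 fell, with a median difference of 0.28; 1 further listed gene, Gdf15, was under the FPKM minimum. The 10537 tested genes had 7.8% higher and a median of -0.01. Atf4, the transcription factor at the centre of the response, had 134, 140.5 and 149 FPKM in TNBS PF and 102, 103 and 111 FPKM in PBS (log2 difference 0.42, adjusted p = 3.28e-05). Trib3, a pseudokinase that ATF4 raises and that feeds back on it, had 12.4, 12.5 and 13.2 FPKM against 8.64, 7.90 and 7.85 FPKM, a 1.56-fold rise (log2 difference 0.59, adjusted p = 5.59e-06). Both genes had every TNBS PF library above every PBS library, and control PF means of 107 and 7.80 FPKM stood beside PBS means of 105 and 8.13 FPKM. Cth, cystathionine gamma-lyase, which makes cysteine, rose the most of the list, from 12.6, 13.8 and 14.8 FPKM to 21, 22.9 and 25.6 FPKM (log2 difference 0.71, adjusted p = 1.75e-05). Chac1, which breaks down glutathione, had 11.6, 11.8 and 14.1 FPKM against 8.11, 9.51 and 8.66 FPKM (log2 difference 0.47, adjusted p = 0.00163). Ddit3, which encodes the stress transcription factor CHOP, rose by 0.29 (adjusted p = 0.0114). Sesn2, a leucine sensor upstream of mTORC1, rose by 0.26 (adjusted p = 0.0264). Nupr1 (0.33), Eif4ebp1 (0.32), Atf5 (0.28), Ppp1r15a (0.18) and Cebpg (0.13) also rose, whereas Atf3 (0.13), Stc2 (0.20), Vldlr (0.15), Fgf21 (0.29), Ddit4 (0.04) and Cebpb (0.00) did not pass. The calls that 1 left-out library ended were those of Ddit3 (without TNBS PF 3, adjusted p up to 0.0519), Sesn2 (without TNBS PF 1 or PBS 2, adjusted p up to 0.108), Ppp1r15a (without TNBS PF 1 or PBS 3, adjusted p up to 0.0703) and Cebpg (without TNBS PF 1 or 3 or PBS 1, 2 or 3, adjusted p up to 0.130).

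ATF4 with a C/EBP partner binds amino acid response elements, and the letters TGATGNAA on either strand stand for them here. The 250 bases upstream of the start held them in 5 of the 15 effectors with a promoter in the RefSeq table (GRCm38.p6), which is 33.3%, against 3.91% of all 27025 genes with a promoter and 2.33% of tested genes. A match is only a description of the letters, and Trib3, Psph, Sesn2 and Ddit3 had none in this window. Atf3, which did not pass, held a match that began 110 bases before the start. The windows of Slc7a11 (chr3:50443614-50443863, minus strand), Chac1 (chr2:119350992-119351241, plus strand) and Asns (chr6:7693210-7693459, minus strand) are shown with the matches in capitals because their genes rose and hold the letters; Slc7a11 and Asns are described with the transporters and enzymes. The matches began 66 and 47 bases before the start in Slc7a11, 193 in Chac1 and 23 in Asns.
Slc7a11: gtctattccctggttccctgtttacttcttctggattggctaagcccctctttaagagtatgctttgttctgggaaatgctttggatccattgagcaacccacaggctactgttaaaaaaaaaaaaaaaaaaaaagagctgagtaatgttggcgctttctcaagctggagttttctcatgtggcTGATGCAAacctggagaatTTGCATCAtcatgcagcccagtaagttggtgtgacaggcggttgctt
Chac1: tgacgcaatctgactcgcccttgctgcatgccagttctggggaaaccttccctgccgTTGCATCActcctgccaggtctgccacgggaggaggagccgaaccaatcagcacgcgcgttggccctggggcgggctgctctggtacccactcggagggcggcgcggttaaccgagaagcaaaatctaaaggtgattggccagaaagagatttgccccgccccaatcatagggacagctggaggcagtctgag
Asns: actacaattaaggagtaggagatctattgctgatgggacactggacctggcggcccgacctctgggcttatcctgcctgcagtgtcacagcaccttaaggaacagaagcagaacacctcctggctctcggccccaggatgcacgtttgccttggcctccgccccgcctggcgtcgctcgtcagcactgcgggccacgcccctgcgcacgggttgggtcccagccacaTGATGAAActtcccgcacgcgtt

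Enzymes that make amino acids and one-carbon units, many of them ATF4 targets, had 13 of 18 tested members higher and 0 lower, with a median of 0.30. Psph, the last enzyme of serine synthesis, had 23, 24.1 and 23.1 FPKM in TNBS PF and 15.2, 15.2 and 15.6 FPKM in PBS (log2 difference 0.58, adjusted p = 2.57e-06). Asns, asparagine synthetase, had 126, 132 and 139 FPKM against 92.2, 89.4 and 96.6 FPKM (log2 difference 0.51, adjusted p = 4.38e-06). The groups did not overlap in either gene. The other serine enzymes Psat1 (0.42) and Phgdh (0.38) rose with Psph, as did the mitochondrial one-carbon enzymes Mthfd2 (0.50), Shmt2 (0.44) and Aldh1l2 (0.28). Their cytosolic relatives Mthfd1 (0.09) and Shmt1 (0.12) did not pass, nor did the glutamine synthetase gene Glul (-0.08). Pycr1 and Aldh18a1 of proline synthesis, the transaminases Gpt2, Got1 and Bcat1, and Pck2 made up the rest of the 13.

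Amino acid transporters had 7 of 12 tested members higher and 1 lower. Slc7a11, which imports cystine in exchange for glutamate, had 4.18, 4.17 and 4.67 FPKM in TNBS PF and 2.34, 2.39 and 2.63 FPKM in PBS, 1.77-fold more (log2 difference 0.63, adjusted p = 4.82e-05). Slc7a5, which carries large neutral amino acids, had 39.5, 41.4 and 45.4 FPKM against 29.9, 26.7 and 31.3 FPKM (log2 difference 0.51, adjusted p = 0.000270). Slc3a2, the partner chain that both need, rose by 0.35 (adjusted p = 4.81e-05). No TNBS PF library overlapped PBS in these genes. The cationic carriers Slc7a3 (0.44) and Slc7a1 (0.31), the neutral carrier Slc1a5 (0.29) and the glycine carrier Slc6a9 (0.23) rose too, and Slc38a10 (-0.14) was the member that fell. Slc38a2 (0.05), a carrier of small neutral amino acids, did not pass. The rise of Slc6a9 and the fall of Slc38a10 were not past the threshold in every leave-out: Slc6a9 (without TNBS PF 1 or 3 or PBS 1 or 3, adjusted p up to 0.132) and Slc38a10 (without TNBS PF 1 or 3 or PBS 1, 2 or 3, adjusted p up to 0.139).

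Cytosolic aminoacyl-tRNA synthetases, which load amino acids onto transfer RNA, had 15 of 20 higher and 0 lower, with a median of 0.26. Gars, the glycine enzyme, had 134, 138 and 135 FPKM in TNBS PF and 105, 101 and 109 FPKM in PBS (log2 difference 0.37, adjusted p = 1.11e-05). Nars, the asparagine enzyme, had 180.1, 190.4 and 193 FPKM against 144, 142 and 151 FPKM (log2 difference 0.36, adjusted p = 1.31e-05). Both groups of values were well apart. The members that did not pass were Qars (-0.03), Kars (0.00), Dars (0.02), Hars (0.06) and Farsa (0.10), for glutamine, lysine, aspartate, histidine and phenylalanine. The letters of the amino acid response were upstream of 3 of the 13 synthetase genes with a promoter (23.1%) and of 4 of 16 amino acid enzyme genes (25%), but of only 1 of 8 transporter genes (12.5%), that of Slc7a11. The list of retinoid genes, described below, had them upstream of 2 of 8 genes (25%).

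**Figure D3:**
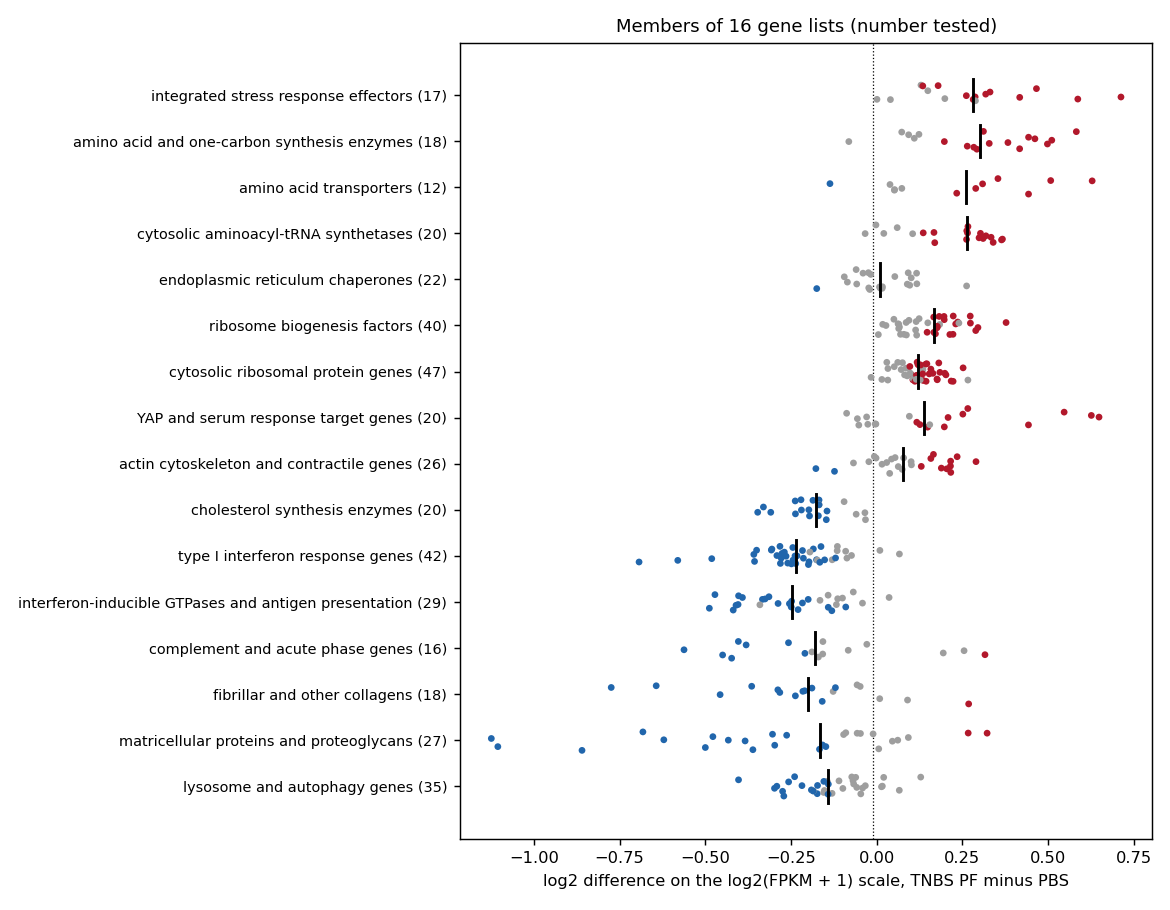
Each point is 1 tested gene of a list, placed by its log2 difference, TNBS PF minus PBS (x axis); red and blue points passed at adjusted p under 0.05, and black bars are list medians. The dotted line is the median of all tested genes, -0.01. The lists of amino acid and ribosome genes lie to its right, and those of cholesterol, interferon, collagen and lysosome genes to its left.

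Chaperones of the endoplasmic reticulum, which rise when proteins misfold in that compartment, had 0 of 22 members higher and 1 lower (P4hb, -0.17). Hspa5, which encodes the chaperone BiP, had 332, 335 and 322 FPKM in TNBS PF and 301, 304 and 321 FPKM in PBS (log2 difference 0.10, adjusted p = 0.0598), and the difference of Xbp1 was -0.02. Median-ratio scaling gave 3 higher members and voom on the recovered fragments 4, quantile normalization gave 3 lower, and leave-outs gave 2 higher without PBS 2, 1 higher without TNBS PF 1 or 3 or PBS 1 or 3, and 2 lower without PBS 1. Of 22 cytosolic and mitochondrial heat shock chaperones 6 rose and 1 fell. The share called was 31.8% here and 4.5% on the endoplasmic reticulum list, against 16.7% of all tested genes. Hspa9, the mitochondrial member of the HSP70 family, had 242, 248 and 251 FPKM against 189.5, 188 and 200.1 FPKM (log2 difference 0.36, adjusted p = 9.4e-06), and the mitochondrial genes Hspd1 and Lonp1 rose with it (0.19 and 0.20). The inducible cytosolic gene Hspa1b fell by 0.26, and 2 fell without PBS 1.

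Antioxidant genes under NRF2 had 8 of 26 members higher and 0 lower, 30.8% called against 16.7% of all tested genes. The thioredoxin reductase gene Txnrd1 had 58.1, 57.3 and 58.8 FPKM in TNBS PF and 47.3, 46.4 and 46.6 FPKM in PBS (log2 difference 0.31, adjusted p = 1.29e-05), and the peroxiredoxin gene Prdx6 rose by 0.31. Slc7a11, also an ATF4 target, is on this list too. Hmox1 (-0.09), Nqo1 (-0.16), Gclc (0.02) and Srxn1 (0.02), which are defining targets, did not pass. The count was 5 without TNBS PF 1 or PBS 1 (the latter with 2 lower), 4 without TNBS PF 2 and 3 without TNBS PF 3, and scaling to TPM or quantile normalization gave 3 lower members beside 6 or 5 higher. Of 27 targets of p53, the tumour suppressor that SV40 large T antigen binds and inactivates, 2 rose and 3 fell, with Gadd45a at 0.45, Cdkn1a at 0.14 (not passed) and Trp53inp1, Fas and Sesn1 at -0.25, -0.24 and -0.23. The p53 list had 18.5% of its members called, against 16.7% of all tested genes, and only 1 rose without TNBS PF 1.

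Factors that build ribosomes had 20 of 40 members higher and 0 lower, with a median of 0.17 and all 40 differences above 0. Rrp12, which exports ribosomal subunits, had 4.35, 3.98 and 4.98 FPKM in TNBS PF and 2.93, 3.40 and 3.21 FPKM in PBS (log2 difference 0.38, adjusted p = 0.00451). Dkc1, the pseudouridine synthase of small nucleolar ribonucleoproteins, had 31.2, 29.5 and 29.9 FPKM against 24.2, 25.5 and 24.8 FPKM (log2 difference 0.27, adjusted p = 0.000197). Neither gene had overlapping groups. Lyar (0.30), Ltv1 (0.29), Mybbp1a (0.21), Pes1 (0.17) and Gnl3 (0.23) rose as well, while Npm1 (0.05), Ncl (0.09) and the RNA polymerase I subunits Polr1a (0.02) and Polr1b (0.03) did not pass. Leaving out TNBS PF 3 or PBS 1 gave 12 calls in place of 20.

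Genes of the cytosolic ribosomal proteins had 28 of 47 tested members higher and 0 lower, by small amounts (median 0.12). Rps18 had 277, 287 and 276 FPKM in TNBS PF and 231, 264 and 237 FPKM in PBS (log2 difference 0.20, adjusted p = 0.00856), with PBS 2 nearest to the TNBS PF libraries. Ribosomal protein genes together held 9.44 ± 0.105% of all FPKM in TNBS PF, 8.81 ± 0.26% in PBS and 9.29% in control PF (exact two-sided permutation p = 0.1 for TNBS PF against PBS, the smallest that 3 against 3 libraries allow). The count of 28 was unstable: it was 16, 11 and 15 without TNBS PF 1, 2 and 3, 12 and 13 without PBS 1 and 3, 37 without PBS 2, 10 (with 1 lower) after quantile normalization, 12 with no filter and 9 without the variance trend. These genes have many near-identical copies in the genome, and the sources used here do not give how the authors' counting treated shared reads. Of 22 translation factors 10 rose and 0 fell, among them Eif2s2 (0.29) and Eif2s1 (0.21), subunits of the initiation factor whose phosphorylation starts the integrated stress response. Leaving out PBS 1 gave 2 lower factors.

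Of 35 mitosis genes, which drive spindle assembly and chromosome separation, 0 rose and 8 fell, with the kinesin Kif4 at -0.18 the largest. These 8 were 22.9% of the list, against 8.88% lower among all tested genes. The proliferation marker Mki67 had 57.7, 59.3 and 57.6 FPKM in TNBS PF and 66.6, 65.6 and 60.8 FPKM in PBS (log2 difference -0.14, adjusted p = 0.0733), which did not pass although its groups did not overlap. The 8 falls became 2 without TNBS PF 1 or 2, 5 without TNBS PF 3, 4 without PBS 1 and 2 without the variance trend. Of 34 DNA replication genes Rrm2 rose (0.22) and Mcm6 fell (-0.11), and of 35 nuclear respiratory chain subunits Atp5b rose (0.12), with 5 higher when PBS 2 was left out and 2 without TNBS PF 3 or PBS 3. Of the DNA replication genes 2 rose without PBS 2. Mitochondrially encoded genes took 7.69% of FPKM in TNBS PF and 7.74% in PBS (exact two-sided permutation p = 0.9). Of 32 hypoxia and glycolysis genes 2 rose and 3 fell. The hexokinase gene Hk2 (0.28) and Vegfa (0.27) rose, and Aldoc (-0.44) was among those that fell. In leave-outs 6 fell without TNBS PF 2, and 1 rose without TNBS PF 1 or 2 or PBS 2 or 3. The share called was 5.88%, 2.86% and 15.6% on the replication, respiratory chain and hypoxia lists, against 16.7% of all tested genes. Leaving out 1 library ended the calls of Mcm6 (without TNBS PF 2 or 3 or PBS 1 or 3, adjusted p up to 0.0760) and Hk2 (without TNBS PF 1 or 2 or PBS 2 or 3, adjusted p up to 0.112).

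Targets of YAP and serum response factor had 11 of 20 tested members higher and 0 lower. Ankrd1, a nuclear ankyrin repeat protein of stretched cells, had 51.5, 52.9 and 51.4 FPKM in TNBS PF and 32.9, 32.7 and 34.3 FPKM in PBS, 1.56-fold more (log2 difference 0.63, SE 0.0328, adjusted p = 2.5e-07). The matricellular genes Ccn1 and Ccn2 are the textbook YAP targets. Ccn1 had 201, 202 and 209.5 FPKM against 138, 138 and 143 FPKM (log2 difference 0.55, adjusted p = 2.98e-07). Ccn2 had 38.3, 39.2 and 37.4 FPKM against 24.1, 22.7 and 25.4 FPKM (log2 difference 0.65, adjusted p = 2.53e-06). Every TNBS PF library was above every PBS library in all of them. Control PF libraries were below PBS in Ccn2, at 19, 17.8 and 19.5 FPKM (log2 difference of control PF to PBS -0.34, adjusted p = 0.00175). Their means were 133 FPKM in Ccn1 and 36.5 FPKM in Ankrd1, against PBS means of 139.6 and 33.3 FPKM. Nt5e (0.44), F3 (0.27), Ajuba (0.25), Axl (0.13) and Crim1 (0.21) rose by less, and Yap1 (-0.03), Wwtr1 (-0.06) and Tead1 (0.00) did not pass.

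YAP acts through TEAD proteins, whose site is represented here by GGAATG on either strand. These letters were in the 250 bases upstream of 10 of the 18 listed YAP and serum response targets with a promoter (55.6%), against 14.4% of all genes and 12.3% of tested genes. The count took tested members whether or not they passed. They were listed as known targets, so the share does not bear on this comparison. The letters were also upstream of 9 of 24 actin genes (37.5%) and of 3 of 11 genes (27.3%) on both the complement and the prostaglandin list. Ccn2 was not matched in the promoter table. The windows of Ankrd1 (chr19:36119845-36120094, minus strand) and Ccn1 (chr3:145649986-145650235, minus strand) are shown with the letters in capitals because these genes had the 2 lowest adjusted p-values of the list. The matches began 210 and 123 bases before the start in Ankrd1 and 103 in Ccn1, where they are on the opposite strand and read CATTCC.
Ankrd1: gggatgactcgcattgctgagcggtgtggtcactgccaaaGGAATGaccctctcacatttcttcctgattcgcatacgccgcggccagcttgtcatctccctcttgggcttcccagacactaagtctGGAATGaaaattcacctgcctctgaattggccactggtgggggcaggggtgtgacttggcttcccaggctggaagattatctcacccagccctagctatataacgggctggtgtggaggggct
Ccn1: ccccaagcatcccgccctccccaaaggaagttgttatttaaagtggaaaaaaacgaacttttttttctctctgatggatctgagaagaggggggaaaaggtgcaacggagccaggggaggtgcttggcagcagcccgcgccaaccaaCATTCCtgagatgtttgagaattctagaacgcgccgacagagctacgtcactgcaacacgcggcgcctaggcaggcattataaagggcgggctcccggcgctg

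Of 26 actin cytoskeleton and contractile genes 10 rose and 2 fell. The cytoplasmic actins Actb (974 ± 14 against 828 ± 8.55 FPKM, SD, n = 3 each) and Actg1 (566 ± 8.67 against 463 ± 16.4 FPKM) rose by 0.23 and 0.29. Smooth muscle actin, Acta2, had 223, 232 and 241 FPKM in TNBS PF and 260.1, 261 and 266 FPKM in PBS, a fall of 0.18 (adjusted p = 0.00236), and its control PF libraries were lower still, with a mean of 195 FPKM. Only 1 gene of the list fell without TNBS PF 1 or 3 or PBS 1. Of 29 immediate early genes and feedback genes of MAP kinase signalling 9 rose and 0 fell, 31% called against 16.7% of all tested genes. Phlda1 had 10.9, 9.78 and 9.16 FPKM against 7.36, 5.95 and 6.40 FPKM (log2 difference 0.53, adjusted p = 0.000342). The ERK feedback and target genes Dusp5 (0.37), Etv4 (0.37), Etv5 (0.25) and Dusp6 (0.24) and the growth gene Myc (0.25) rose too, but Fos (0.09), Jun (0.08) and Egr1 (-0.10) did not pass at 24 h.

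Collagens were lower as a group: 12 of 18 tested members fell and 1 rose, with a median of -0.20, and 4 further listed collagens were under the FPKM minimum. Among all tested genes 8.88% were lower. Col3a1, a fibrillar collagen of soft tissue, had 26.9, 27.3 and 26.5 FPKM in TNBS PF and 48.7, 45.4 and 46.2 FPKM in PBS, 1.74-fold less (log2 difference -0.77, SE 0.0347, adjusted p = 5.34e-08). Control PF libraries held 39.4, 38.1 and 37.4 FPKM, between the other groups. Col12a1, which coats fibrils, had 15.9, 16.8 and 16.4 FPKM against 27.9, 25.8 and 24.6 FPKM (log2 difference -0.64, adjusted p = 4.78e-06). Both chains of collagen I were lower, Col1a2 by 0.29 (adjusted p = 0.000219) and Col1a1 by 0.22 (adjusted p = 0.0343). Col1a1 had 267, 247 and 239 FPKM against 321, 268 and 289 FPKM, so that TNBS PF 1 and PBS 2 nearly met, and its call was lost without TNBS PF 2 or 3, without PBS 1 or 3 (adjusted p up to 0.126), with no filter and without the variance trend. Leave-outs also ended the falls of Col16a1 (without TNBS PF 1, 2 or 3 or PBS 1 or 3, adjusted p up to 0.0958), Col5a3 (without TNBS PF 1, 2 or 3 or PBS 1, adjusted p up to 0.0854) and Col7a1 (without TNBS PF 2 or PBS 1, adjusted p up to 0.0568). The collagen VI chains Col6a1 (-0.46), Col6a2 (-0.36) and Col6a3 (-0.24) fell together. Col8a1 rose from 60.1, 62.3 and 59.5 FPKM to 73.8, 72.4 and 73.5 FPKM (log2 difference 0.27, adjusted p = 4.68e-05), and the basement membrane chains Col4a1 (0.01) and Col4a2 (0.09) did not pass. Of 18 collagen processing enzymes P4ha1 (-0.22) and Plod1 (-0.12) fell and the collagen chaperone Serpinh1 (0.09) rose. These were 16.7% of the enzymes, the same share as was called over all tested genes. The calls of Plod1 and Serpinh1 hung on single libraries: Plod1 (without TNBS PF 1, 2 or 3 or PBS 1 or 3, adjusted p up to 0.124) and Serpinh1 (without TNBS PF 1, 2 or 3 or PBS 1 or 2, adjusted p up to 0.133).

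Matricellular proteins and proteoglycans had 16 of 27 tested members lower and 2 higher, and 14 lower when Ccn5 and Postn, which were under the FPKM minimum in all TNBS PF libraries, were left out. Thbs2, a thrombospondin, had 72.6, 69 and 67.6 FPKM in TNBS PF and 114, 103 and 107 FPKM in PBS (log2 difference -0.62, adjusted p = 9.62e-07). Fibronectin, Fn1, had 246, 238 and 236 FPKM against 327, 270.3 and 291 FPKM (log2 difference -0.30, adjusted p = 0.00304). Thbs1 fell by 0.36, Tgfbi by 0.48, Efemp1 by 0.50, Fbln5 by 0.43 and Fbn1 by 0.26. Ccn1 and Ccn2, matricellular genes that rose, were counted with the YAP targets and are not on this list. The members that rose both belong to the hyaluronan matrix: Has2, a hyaluronan synthase (0.32, adjusted p = 0.00384), and Tnfaip6, whose product TSG-6 crosslinks hyaluronan (19, 18.4 and 19 FPKM against 14.7, 15.3 and 16.3 FPKM, log2 difference 0.27, adjusted p = 0.00103).

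Among 25 matrix proteases and their inhibitors 9 fell and 3 rose. The gelatinase gene Mmp9 (-0.55), the inhibitor Timp2 (130.5 ± 4.07 against 167 ± 2.60 FPKM, SD, n = 3 each, log2 difference -0.36), Adamts4 (-0.36), the plasminogen activator Plat (-0.32) and cathepsin K, Ctsk (-0.30), were lower. The urokinase receptor gene Plaur rose from 10.6, 10.8 and 10.8 FPKM to 12.7, 14.3 and 14.7 FPKM (log2 difference 0.34, adjusted p = 0.000742), and the metalloprotease gene Adam19 by 0.31. Of 26 genes of TGF-beta ligands, receptors and feedback 4 rose and 3 fell. The ligand Tgfb1 had 6.96, 6.53 and 6.75 FPKM against 7.77, 6.23 and 6.86 FPKM (log2 difference -0.03, adjusted p = 0.785) with overlapping groups, the receptor Tgfbr2 fell by 0.28, and Fst, Id2 and Inhba rose by 0.27, 0.25 and 0.20. Of 16 integrins and laminins Itga6 (0.44), Itga7 (0.35), Itga3 (0.30) and Itgb7 (0.27) rose and Lamb2 (-0.25), Itgb5 (-0.17) and Nid1 (-0.12) fell. Leave-outs ended the calls of Fst (without TNBS PF 1 or 2 or PBS 3, adjusted p up to 0.0865), Id2 (without TNBS PF 1, 2 or 3 or PBS 1 or 3, adjusted p up to 0.136), Itgb7 (without TNBS PF 3 or PBS 1 or 3, adjusted p up to 0.0614) and Nid1 (without TNBS PF 1 or 3 or PBS 1, adjusted p up to 0.0798). The 4 rises of the TGF-beta list were 2 without TNBS PF 1, 2 or 3 or PBS 3. Of the protease, TGF-beta and integrin lists 48%, 26.9% and 43.75% were called, against 16.7% of all tested genes.

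Interferon response genes were lower in TNBS PF than in PBS. The type I interferon list had 32 of its 42 tested genes lower and 0 higher, with a median of -0.23. Ifit3, an antiviral protein with tetratricopeptide repeats, had 43, 35 and 41.3 FPKM in TNBS PF and 66.5, 63.3 and 64.2 FPKM in PBS (log2 difference -0.69, SE 0.0609, adjusted p = 1.11e-05). Ifit1 had 54.4, 46.6 and 50.5 FPKM against 69, 68.1 and 75.3 FPKM (log2 difference -0.48, adjusted p = 5.66e-05). In both, all PBS libraries were above all TNBS PF libraries, and the control PF means, 45.6 and 56.1 FPKM, lay nearer to TNBS PF than to PBS. The transducer Stat2 (-0.20), the regulators Irf7 (-0.24) and Irf9 (-0.20), the RNA sensors Ddx58 (-0.28), Ifih1 (-0.23) and Dhx58 (-0.35) and the antiviral genes Mx2 (-0.36), Oas2 (-0.31) and Rsad2 (-0.27) fell as well. Isg15, a ubiquitin-like modifier, had 194, 174 and 191 FPKM against 209, 215 and 207 FPKM, a fall of 0.18 (adjusted p = 0.00716). Oasl1 (0.07) and Oas1g (0.01) did not pass. Mx1 was under the FPKM minimum.

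Interferon-inducible GTPases and antigen presentation genes had 20 of 29 tested members lower and 0 higher, or 18 without Gbp4 and Tgtp1, which were under the FPKM minimum in all TNBS PF libraries. Iigp1, an immunity-related GTPase, had 25.6, 23.9 and 25.5 FPKM in TNBS PF and 35.4, 35.1 and 34.6 FPKM in PBS (log2 difference -0.47, adjusted p = 9.01e-06). Gbp2, a guanylate binding protein, had 47.7, 44.1 and 42.2 FPKM against 60.3, 61.7 and 58 FPKM (log2 difference -0.42, adjusted p = 6.22e-05). Neither gene had overlapping groups. Igtp (-0.41), Irgm2 (-0.40), Gbp5 (-0.39) and Gbp3 (-0.33) fell in the same way. The peptide transporter Tap1 (-0.23), the loading factor Tapbp (-0.25) and the class I genes H2-T23 (-0.31) and H2-D1 (-0.13) were lower. H2-K1 fell by 0.09 (adjusted p = 0.0317), a call lost in each leave-out but that of PBS 2 (adjusted p up to 0.111). B2m (-0.10), Psmb8 (-0.11) and Cxcl10 (-0.04) did not pass. Members of the Ifit, Oas, Gbp and H2 families resemble each other, so their individual values are uncertain to the extent that reads were shared.

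The letters GAAA, any 2 bases and GAAA again, on either strand, stand for the interferon-stimulated response element, which a complex of STAT proteins and IRF9 binds. They were in the 250 bases upstream of 11 of the 31 listed type I interferon genes with a promoter (35.5%) and of 12 of 24 GTPase and antigen presentation genes (50%), against 3.46% of all genes and 3.2% of tested genes. Other lists held them too, among them 6 of 36 ribosomal protein genes (16.7%) and 2 of 5 Serpinb genes (40%). The windows of Ifit3 (chr19:34583279-34583528, plus strand), Ifit1 (chr19:34640639-34640888, plus strand) and Gbp3 (chr3:142559794-142560043, plus strand) are given because they show the letters in genes of both lists, here as TTTC, 2 bases and TTTC on the printed strand. The matches began 156 and 122 bases before the start in Ifit3, 104 and 85 in Ifit1, and 45 and 39 in Gbp3, where they overlap and form a single run of capitals. The window of a second Gbp3 start (chr3:142560106-142560355, plus strand) had no match, nor did those of Irf7, Oasl2 and Psmb9.
Ifit3: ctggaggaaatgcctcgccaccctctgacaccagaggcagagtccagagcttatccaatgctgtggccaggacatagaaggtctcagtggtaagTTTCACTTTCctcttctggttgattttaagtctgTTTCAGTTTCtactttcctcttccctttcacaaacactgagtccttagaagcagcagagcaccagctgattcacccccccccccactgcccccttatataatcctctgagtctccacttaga
Ifit1: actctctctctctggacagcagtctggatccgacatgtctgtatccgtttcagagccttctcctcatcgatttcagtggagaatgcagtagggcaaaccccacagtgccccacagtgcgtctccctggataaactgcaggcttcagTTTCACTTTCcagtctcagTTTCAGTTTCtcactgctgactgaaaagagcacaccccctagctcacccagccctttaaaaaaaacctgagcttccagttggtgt
Gbp3: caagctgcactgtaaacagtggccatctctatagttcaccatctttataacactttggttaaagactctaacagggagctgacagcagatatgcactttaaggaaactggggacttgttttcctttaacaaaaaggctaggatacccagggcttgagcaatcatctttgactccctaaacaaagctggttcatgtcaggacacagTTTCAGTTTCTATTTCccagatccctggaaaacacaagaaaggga

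Secreted inflammatory genes moved in both directions. Of 26 cytokines and growth factors of stroma 7 rose and 2 fell, 34.6% called against 16.7% of all tested genes. Hbegf, a ligand of the EGF receptor, had 18.3, 18.4 and 16.4 FPKM in TNBS PF and 13.7, 12.3 and 13.7 FPKM in PBS (log2 difference 0.39, adjusted p = 0.000414). Hgf, hepatocyte growth factor, had 8.66, 7.89 and 8.42 FPKM against 10.9, 11.1 and 10.9 FPKM (log2 difference -0.36, adjusted p = 0.000116). The groups did not overlap in either gene, Hbegf being higher and Hgf lower in TNBS PF. Bdnf (0.31), Vegfa (0.27) and Pdgfa (0.24) were higher and Vegfd (-0.34) lower. Il6 had 8.86, 7.10 and 7.13 FPKM against 5.42, 6.92 and 7.13 FPKM with overlapping groups (log2 difference 0.22, adjusted p = 0.122). Without PBS 3 the 7 rises became 4. Tslp, an epithelial and stromal alarmin, passed at adjusted p = 0.0322 although its groups overlapped, and the call was lost without TNBS PF 1 or 3 and without PBS 1 or 3 (adjusted p up to 0.125).

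Of 14 chemokine genes with the scavenging receptor Ackr3, 4 rose and 4 fell. Cx3cl1 fell the most, from 23.5, 20.7 and 22 FPKM to 15.1, 14.8 and 15.4 FPKM (log2 difference -0.52, adjusted p = 9.45e-06). The neutrophil attractants Cxcl3 (0.34) and Cxcl5 (0.27) and Ackr3 (0.38) rose. Ccl2, the main monocyte attractant, had 304, 279.8 and 313 FPKM against 314, 343 and 326 FPKM (log2 difference -0.13, adjusted p = 0.0440), a call lost without TNBS PF 1 or 2 or PBS 2 or 3 (adjusted p up to 0.175) and with median-ratio scaling. Without TNBS PF 2 or PBS 3 the 4 chemokine falls were 2. Cxcl12, which holds blood stem cells in the marrow, had a difference of -0.08 (adjusted p = 0.127). Of 20 NF-kB subunits and feedback genes 4 rose and 1 fell, with Nfkbia at 0.02 (adjusted p = 0.755), the deubiquitinase gene Tnfaip3 at 0.20 and Tnip1 at -0.28. The number that rose was 2 without TNBS PF 2, Tnfaip3 being lost there (adjusted p = 0.0795). Of the chemokine list 57.1% and of the NF-kB list 25% were called, against 16.7% of all tested genes.

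Of complement and acute phase genes 7 of 16 tested members fell (6 without the 2 tested members that were under the FPKM minimum in all TNBS PF libraries) and 1 rose; 9 further listed genes were under the FPKM minimum. Steap4, a metalloreductase raised by inflammatory cytokines, had 56.5, 51.2 and 50.3 FPKM in TNBS PF and 79.4, 80.0 and 75 FPKM in PBS (log2 difference -0.56, adjusted p = 4.24e-06). Saa3, a serum amyloid A gene, had 84.3, 68.3 and 80.2 FPKM against 106, 111 and 101 FPKM (log2 difference -0.45, adjusted p = 0.000655), and the complement component C3 123, 121 and 123 FPKM against 173, 157 and 149.7 FPKM (log2 difference -0.38, adjusted p = 7.34e-05). In these genes the groups did not overlap. Control PF means were 81.2, 113 and 145 FPKM for Steap4, Saa3 and C3. The member that rose, Ptx3, had PBS 2 within the TNBS PF range and passed at adjusted p = 0.0482, a call lost in each leave-out but that of PBS 2 (adjusted p up to 0.158). Of 12 prostaglandin genes Ptgs2, the inducible cyclooxygenase, rose from 84.7, 85.8 and 81.1 FPKM to 107, 111 and 104 FPKM (log2 difference 0.36, adjusted p = 2.02e-05), the transporter Slco2a1 (0.31) and Ptges3 (0.17) rose, and the constitutive Ptgs1 fell by 0.22. These were 33.3% of the prostaglandin list, against 16.7% called over all tested genes.

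Enzymes of cholesterol synthesis had 15 of 20 members lower and 0 higher, with a median of -0.18 and all 20 differences below 0. Idi1, which isomerises isopentenyl diphosphate, had 54, 53.5 and 52.7 FPKM in TNBS PF and 62.3, 70.8 and 66.3 FPKM in PBS (log2 difference -0.31, adjusted p = 0.000247). Sqle, the squalene epoxidase of the pathway, had 47.9, 48.2 and 48.2 FPKM against 51.1, 53.2 and 55.9 FPKM (log2 difference -0.15, adjusted p = 0.00873). All PBS libraries were above all TNBS PF libraries in both. Mvd (-0.33), Acat2 (-0.24), Hmgcs1 (-0.20), Cyp51 (-0.19) and Lss (-0.22) fell as well, and so did Fdps (-0.35), in a call lost without TNBS PF 2 or PBS 3 (adjusted p up to 0.0741). SREBP binds sterol regulatory elements, for which TCACNCCAC on either strand was searched in the same upstream windows. It was in 1 of the 15 cholesterol synthesis genes with a promoter (6.67%, Hmgcs1), against 1.22% of all genes and of tested genes, and the windows of Idi1 and Mvd had none. Of 12 genes of sterol uptake and sensing 4 fell, among them Insig1 (-0.29), which holds SREBP back in the endoplasmic reticulum, and the ubiquitin ligase gene Mylip (-0.31). Of 12 genes of fatty acid synthesis and desaturation Fasn (-0.29), Acly (-0.22), Elovl6 (-0.16) and Scd2 (-0.15) fell and 0 rose. Leave-outs ended the calls of Elovl6 (without TNBS PF 1, 2 or 3 or PBS 1 or 3, adjusted p up to 0.0899) and Scd2 (without TNBS PF 3, adjusted p up to 0.0654), which left 2 of the 4 without TNBS PF 3. Of 16 genes of fatty acid oxidation and PPAR targets 2 rose and 3 fell, with the lipid droplet gene Plin2 at 0.24 and the carnitine transferase Cpt1a at -0.24. The 3 falls were 1 without TNBS PF 2, and the 2 rises were 1 without TNBS PF 1 or 3 or PBS 2 or 3. On the fatty acid oxidation list 31.25% were called, against 16.7% of all tested genes. It was 33.3% each for sterol uptake and for fatty acid synthesis.

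Lysosome and autophagy genes had 15 of 35 members lower and 0 higher, with a median of -0.14. Lamp2, a lysosomal membrane protein, had 71.2, 67.5 and 68.8 FPKM in TNBS PF and 83.5, 83.9 and 83.5 FPKM in PBS (log2 difference -0.27, adjusted p = 5.66e-05). Cathepsins A and F (Ctsa, -0.29; Ctsf, -0.40), acid lipase (Lipa, -0.24), Lamp1 (-0.17), cathepsin D (Ctsd, -0.17) and the proton pump subunit Atp6v1a (-0.19) fell too, while Ctsb (-0.06), Ctsl (0.02) and the regulator Tfeb (0.13) did not pass. Beside Tfrc, the iron list of 23 tested genes had the metalloreductases Steap1 (0.35) and Steap2 (0.15), Fbxl5 (0.16) and Pcbp1 (0.12) higher and Steap3 (-0.31) and Steap4 lower; the calls of Fbxl5 (without TNBS PF 2 or 3 or PBS 1, adjusted p up to 0.0884) and Steap3 (without TNBS PF 2 or 3 or PBS 2 or 3, adjusted p up to 0.115) were lost in leave-outs, and 1 of the list fell without TNBS PF 2 or 3 or PBS 3. The ferritin genes Fth1 (-0.06) and Ftl1 (0.13) and the importer Slc11a2 (-0.01) did not pass. Ferroptosis genes had 7 of 17 higher and 0 lower, of which Tfrc, Slc7a11, Slc3a2, Chac1 and Ptgs2 are described above, and Gpx4 (0.11) did not pass. Of the iron list 30.4% and of the ferroptosis list 41.2% were called, against 16.7% of all tested genes.

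Genes of coagulation and fibrinolysis had 5 of 17 members higher and 4 lower. Beside Thbd, Serpinb2 and Plaur, tissue factor, F3, rose from 24.4, 23.1 and 23 FPKM in PBS to 26.8, 29 and 29.6 FPKM in TNBS PF (log2 difference 0.27, adjusted p = 0.00119). Serpine2 (-0.38), Plat, Gas6 (-0.25) and the thrombin receptor F2r (-0.11) were the 4 that fell, F2r (without TNBS PF 1, 2 or 3 or PBS 1 or 3, adjusted p up to 0.0873) being past the threshold only in part of the leave-outs. Among 6 tested clade B serpins, Serpinb6b rose by 0.45 beside Serpinb2, and Serpinb1a, an inhibitor of neutrophil proteases, had 12.5, 9.94 and 10.8 FPKM in TNBS PF and 15.2, 15.3 and 15.5 FPKM in PBS (log2 difference -0.44, adjusted p = 0.000542). Control PF libraries lay above both groups in Serpinb1a, at 20.7, 19.8 and 18.8 FPKM.

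Surface markers and receptors of stroma had 4 of 21 tested members higher and 3 lower. The PDGF receptors Pdgfrb (14.5, 13.8 and 14.1 FPKM in TNBS PF and 19.6, 19 and 19.3 FPKM in PBS, log2 difference -0.42, adjusted p = 2.61e-05) and Pdgfra (-0.36) fell, as did Ly6a, the gene of Sca-1 (-0.25). Nt5e, which encodes CD73 (0.44), Alcam (0.24), Nes (0.21) and Vcam1 (0.15) rose, Alcam not without TNBS PF 1 or 2 or PBS 3 (adjusted p up to 0.0854), and Thy1 (-0.01), Eng (-0.01) and Cd44 (0.00) did not pass. Of 10 IGF system genes Igfbp3, Igf2r (-0.22) and Igfbp6 (-0.20) fell, 2 without Igfbp3. Of 11 retinoid genes Crabp2 (0.14) rose, a call lost in each leave-out but that of PBS 3 (adjusted p up to 0.165). That is 9.09% called, against 16.7% of all tested genes. Of 16 glucocorticoid receptor targets 3 rose and 3 fell, with the EGF receptor inhibitor Errfi1 the largest (108 ± 1.97 against 77.8 ± 4.13 FPKM, SD, n = 3 each, log2 difference 0.47) and the receptor Nr3c1 itself lower (-0.23). Without TNBS PF 2 the 3 falls were 1. The surface marker, IGF and glucocorticoid lists had 33.3%, 30% and 37.5% called, against the same 16.7%. Of 4 tested mesothelial markers Krt18 (0.32), Krt19 (0.50) and Msln (0.14) rose, the last 2 with overlapping groups. Leaving out 1 library ended the calls of Krt18 (without TNBS PF 2 or 3 or PBS 1, adjusted p up to 0.0718), Krt19 (without TNBS PF 1 or 2 or PBS 2 or 3, adjusted p up to 0.104) and Msln (without TNBS PF 2 or 3 or PBS 1 or 2, adjusted p up to 0.180). In this list 10 others were under the FPKM minimum, and Muc16 and Nkain4 were at 0 in all TNBS PF and PBS libraries. Their summed level was 52.6 to 57.9 FPKM in TNBS PF and 47.8 to 48.6 FPKM in PBS (exact two-sided permutation p = 0.1), and its part in other results was not tested.

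The control PF group shows how these genes stood in cells given fluid without TNBS treatment of the donors. The 3 comparisons share libraries, so their values are set side by side only. Control PF differed from PBS in 227 genes (2.15%), 107 higher (1.02%) and 120 lower (1.14%), and TNBS PF from control PF in 1117 (10.6%), 543 higher (5.15%) and 574 lower (5.45%). Among the stress effectors, 0 of 17 passed in control PF against PBS, and in TNBS PF against control PF 13 were higher. For the synthetases the numbers were 0 of 20 and 14 higher, for ribosome biogenesis 0 of 40 and 28 higher, and for cholesterol synthesis 1 of 20 higher and 17 lower. Ribosomal protein genes had 0 of 47 called in either of these comparisons, with medians of 0.08 for control PF against PBS and 0.03 for TNBS PF against control PF. Of the interferon genes, 15 of 42 on the type I list and 8 of 29 on the GTPase and antigen presentation list were lower in control PF than in PBS, and 5 and 9 were lower in TNBS PF than in control PF. The matricellular list had 9 of 27 lower and 4 higher in control PF against PBS and 12 lower and 1 higher in TNBS PF against control PF. Without the members under the FPKM minimum in all libraries of a compared group (Postn in both comparisons, Ccn5 in the second), the falls were 8 and 11. Leaving out Gbp4 and Tgtp1 in the same way did not change the counts of 8 and 9 on the GTPase list. Collagens had 3 of 18 lower in control PF against PBS and 8 lower and 1 higher in TNBS PF against control PF. Lysosome genes had 1 of 35 and 9 of 35 lower. Complement and acute phase genes had 2 of 16 higher and 0 lower in control PF against PBS and 8 lower in TNBS PF against control PF.

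**Figure D4:**
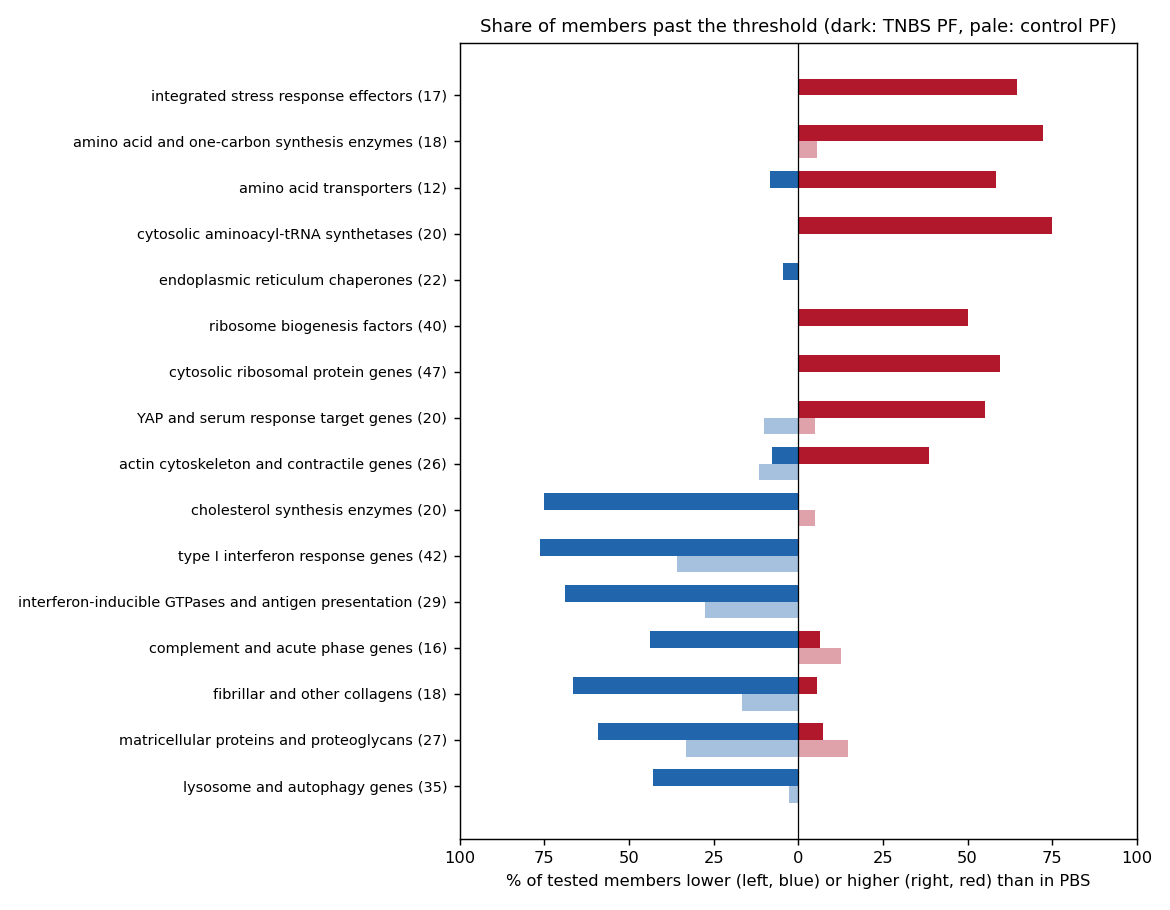
Share of the tested members of each list (x axis, %) that passed at adjusted p under 0.05, higher to the right and lower to the left, for TNBS PF against PBS (dark bars) and control PF against PBS (pale bars), which share the PBS libraries. Of the type I interferon genes 32 of 42 were lower in TNBS PF and 15 of 42 in control PF; of the stress effectors 11 of 17 were higher in TNBS PF and 0 in control PF.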

How the data were processed

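Gene expression of 9 MSC libraries, 3 per group, was read from a table of FPKM values that the authors deposited. Cutadapt 1.15 and the build mm10 are named in the submitters' processing notes. The aligner, counter, annotation and use of strand could not be taken from the sources used here. The table also holds group means in FPKM, and log2 fold changes, p-values and q-values of the authors' deposited comparisons, per the file headers; no test rests on them.

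FPKM times GENCODE M21 exon length gave whole fragments for 97.2 to 97.3% of values below 1000 fragments (tolerance 0.01), and these gave each library's depth. TNBS PF libraries were the deeper ones, so low genes are measured more precisely there. Genes with an FPKM of at least 1 in 3 or more libraries (10537 of 21959) were tested on log2(FPKM + 1) with limma 3.58.1 in R 4.3.3: 1 mean per group, all 9 libraries, a variance trend, Benjamini-Hochberg adjustment and a threshold of 0.05. At the minimum, Pcdhb18 and Calr3 lay just inside, with a third-highest FPKM of 1 and 1.001, and Mttp and Ptpmt1 just outside, with 0.999 and 0.9984. Single values were compared by an exact two-sided permutation test over libraries.

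Named genes were the 15 largest rises and 15 largest falls without overlap of the groups, up to 6 members per list by size of change and 10 preset genes. Further members were named after their values were seen, mostly to show which did not pass. The members and lists were chosen with earlier results of these data known. Promoters are RefSeq sequences of GRCm38.p6, found by symbol for 8449 of 10535 tested symbols. Gene positions are those of GENCODE M21 on mm10. Alternatives changed the pseudocount, filter, scaling, variance trend, libraries fitted, replicate block, count model and depth (thinning to the shallowest library was chosen after seeing the data).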

Additional observations from a re-analysis of the deposited data

How the results depend on the processing

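No gene chosen by the naming rule and past the threshold changed direction under any alternative run; genes named beyond the rule were checked only by leaving out libraries. The list medians that lie near 0 (endoplasmic reticulum chaperones, TGF-beta, retinoid, iron and stromal surface genes) changed sign between scalings, so only counts are given for these lists. Calls in TNBS PF against PBS ranged from 1391 with no filter on low values to 2184 with voom on the recovered fragments, and 1641 of the latter were among the 1758. They ranged from 1148 (without TNBS PF 3) to 1620 (without PBS 2) when 1 library of either group was left out, with 518 to 814 higher and 619 to 806 lower. Control PF against PBS gave 227 calls, 103 with no filter, 117 without the variance trend, 375 with voom and 115 to 311 in leave-outs. TNBS PF against control PF gave 661 to 860 calls in leave-outs. Scaling to TPM moved the median difference of all genes from -0.01 to -0.03 and median-ratio scaling to 0.0002.

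Of the 231 genes chosen by that rule and past the threshold, 37 were lost with no filter, 31 without the variance trend, 14 with only the 6 libraries fitted, 6 to 12 under other scalings and 16 to 44 in leave-outs. Same-numbered TNBS PF and PBS libraries deviated together with correlations of 0.00249, 0.0746 and 0.0684, so the numbers were not taken as pairs; the fit with the replicate block gave 1537 calls. The smaller depth of the PBS libraries limits low genes; thinning all libraries to the shallowest gave 1669 calls, 1567 of them among the 1758. With 3 against 3 libraries an exact two-sided permutation test cannot go below 0.1. Reads shared by near-identical gene copies could not be separated from FPKM values.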
